A study of Homo sapiens with 7 samples.

Results

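Small nucleolar RNAs (snoRNAs) and small Cajal body RNAs (scaRNAs) were described on 4 arrays of bafilomycin A1-treated cells. Members were the array spots, other than control spots, whose gene name starts with SNORA, SNORD or SCARNA followed by a digit. This gave 321 of the 36337 gene names on the array and 355 of its 50599 probes: 103 box H/ACA genes (SNORA, 125 probes), 196 box C/D genes (SNORD, 203 probes) and 22 scaRNA genes (27 probes). The choice used the names only and no measured value.

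Box C/D snoRNAs guide the 2′-O-methylation of ribosomal RNA and box H/ACA snoRNAs guide the conversion of uridine to pseudouridine, each by base pairing with the target while a set of core proteins carries out the reaction. A few snoRNAs act in the cleavage of the ribosomal RNA precursor instead. The scaRNAs carry C/D boxes, H/ACA boxes or both and guide the same modifications on spliceosomal RNAs in Cajal bodies. Most human snoRNAs and scaRNAs lie in introns of host genes and are trimmed out of the spliced intron.

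The cells were HCT116, a human colon carcinoma line, in a derivative that expresses histone H2B fused to GFP and that the labels call diploid. All 4 samples received 10 nM bafilomycin A1, an inhibitor of the vacuolar proton pump, for 30 h, and 100 ng of RNA was labelled for each single-colour array. The series also has 3 untreated samples of this line, which were not analysed here. Every value therefore describes treated cells only, with no contrast and no test of the treatment. Nothing in the labels says whether the 4 samples were separate cultures, so the SDs measure only the spread between these arrays, all of which lay on 1 slide. Of the spots on an array, 55.6% (replicate 4) to 60.4% (replicate 1) were well above background, and 229 to 247 of the 355 member spots were. No member spot was saturated or marked as outlying. Of all genes on the array, 54.2% had at least 1 probe well above background on all 4 arrays. Of 8 colon epithelium markers, 6 were well above background on all 4 arrays (EPCAM, CDH1, KRT8, KRT18, KRT19 and CDX2), and CEACAM5 and VIL1 were so on none. Of 8 markers of blood, fibroblast, endothelial and liver cells, 4 had at least 1 probe well above background on all 4 arrays (PTPRC, CD3E, COL1A1 and VWF). As medians over all probes of a gene, detected or not, these had means from -2.07 for PTPRC to 2.91 for COL1A1 (log2 relative to the array median). Their part in the values below was not tested. Since RNA was taken in bulk, fewer cells with an RNA and less of it per cell cannot be told apart.

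Each probe is 60 bases long. Most member probes were designed on the RefSeq record of the small RNA itself and are given here on the strand of that RNA. A further 31 were designed on the record of a longer cDNA clone that carries the same gene name, and some of these lie on the opposite strand. The defining boxes were looked for on the probe strand, with the reverse strand as comparison. Box D (CTGA) was present in 191 of the 199 box C/D probes on their own record (96%), against 29.4% of all probes on the array and 20.6% of the 102 box H/ACA probes. It was found on the reverse strand of 16.6% of the box C/D probes. The core of box C (TGATGA) was present in 24.6% of the box C/D probes and in 2.89% of all probes, and TGATGA with a CTGA after it in 22.6% and 0.474%. The ACA box lies 3 bases before the end of a mature H/ACA RNA. Probes whose last 6 bases read ACANNN made up 45.1% of the box H/ACA probes, 47.8% of the 23 scaRNA probes, 1.51% of the box C/D probes and 2.12% of all probes. Of the 31 probes on cDNA records, 12.9% held CTGA and 3.23% ended in ACANNN. Box H (ANANNA) was present in 69.9% of all probes and separated nothing. A match says only that the letters lie in the probe, not that the box is used.

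The probes below show these letters in RNAs that the later results turn on. Coordinates are those of the files (GRCh37). Capitals mark the first TGATGA and the last CTGA in SNORD29 (chr11:62621376-62621435, minus strand), SNORD44 (chr1:173835106-173835165, minus strand), SNORD15A (chr11:75111452-75111511, plus strand), SNORD26 (chr11:62622764-62622823, minus strand) and SNORD114-14 (chr14:101438448-101438507, plus strand). They mark the ACA before the last 3 bases in SNORA33 (chr6:133138431-133138490, plus strand), SNORA60 (chr20:37078088-37078147, plus strand) and SCARNA18 (chr5:82360023-82360082, minus strand). SNORD15A and SNORD26 hold CTGA without TGATGA. In SNORD15A the only CTGA lies near the start of the probe, and whether it is box D was not checked.
SNORD29: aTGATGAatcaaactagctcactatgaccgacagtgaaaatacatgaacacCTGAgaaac
SNORD44: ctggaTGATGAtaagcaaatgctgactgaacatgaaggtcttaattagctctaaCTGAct
SNORD15A: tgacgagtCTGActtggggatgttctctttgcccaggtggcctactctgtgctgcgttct
SNORD26: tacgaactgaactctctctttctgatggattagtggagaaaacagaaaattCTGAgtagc
SNORD114-14: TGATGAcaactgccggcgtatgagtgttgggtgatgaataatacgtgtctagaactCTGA
SNORA33: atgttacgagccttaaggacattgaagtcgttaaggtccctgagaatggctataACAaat
SNORA60: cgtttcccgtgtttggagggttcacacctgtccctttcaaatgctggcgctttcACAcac
SCARNA18: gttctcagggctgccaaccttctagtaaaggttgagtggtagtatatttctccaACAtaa

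The 3 classes differed in how many of their genes gave a signal. A probe counted as detected when it was well above background on all 4 arrays, and a gene when at least 1 of its probes was. On this basis 216 of 321 members were detected (67.3%), where 54.2% of all genes on the array were. Box H/ACA genes were detected in 94 of 103 cases (91.3%), scaRNA genes in 21 of 22 (95.5%) and box C/D genes in 101 of 196 (51.5%). Counted by probe, 226 of 355 member probes were detected (63.7%), against 50.7% of all probes. The difference between the classes was also present when only probes on the small RNA's own record were counted: 93 of 102 box H/ACA probes (91.2%), 22 of 23 scaRNA probes (95.7%) and 101 of 199 box C/D probes (50.8%). Of the 31 probes on cDNA records, 10 were detected (32.3%). These arrays cannot tell a mature snoRNA from the same stretch of an unspliced host transcript, since both hold the probed sequence. Whether RNAs as short as mature snoRNAs were retained and labelled as well as longer ones was not tested. The part of RNA length in the difference between the classes was not tested either.

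**Figure D1:**
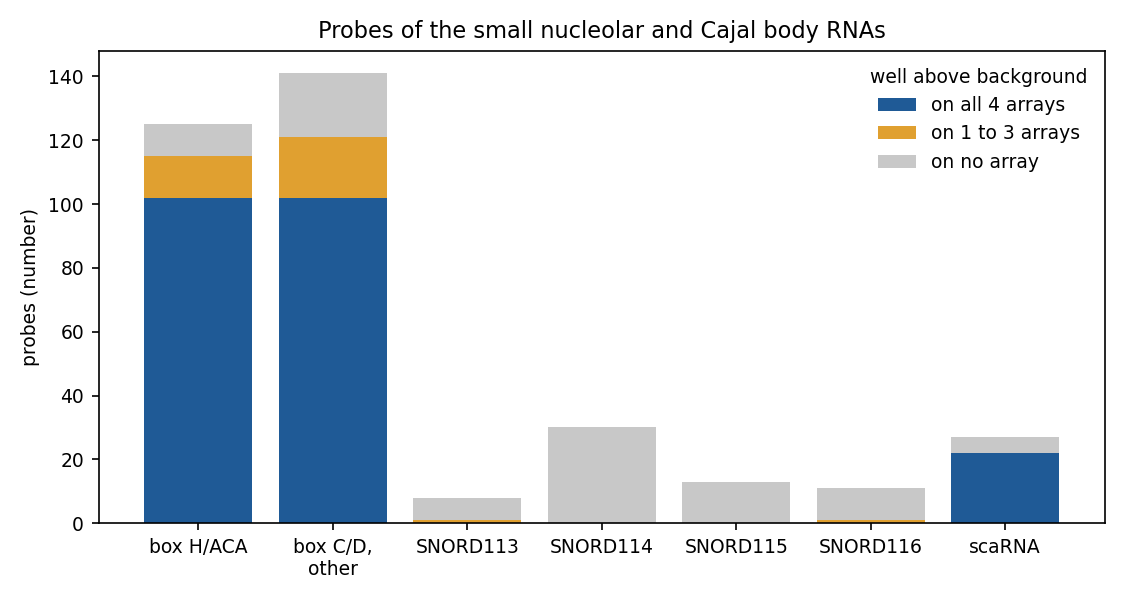
Number of member probes (vertical axis) by class, with the box C/D class split into 4 tandem families and all other genes. Bars start at 0, and blue, orange and grey stand for probes well above background on all 4, on 1 to 3 and on no array. The 62 probes of SNORD113 to SNORD116 hold no blue part, while 102 of 125 box H/ACA probes and 102 of the 141 other box C/D probes are blue.

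The shortfall of the box C/D class lay largely in 4 families of tandem copies. SNORD113 and SNORD114 lie in the imprinted cluster on chromosome 14 and SNORD115 and SNORD116 in the imprinted cluster on chromosome 15, which is known from Prader-Willi syndrome and for expression in the brain. None of their 60 genes was detected. Of their 62 probes, 60 were well above background on no array, where 38.7% of all probes were. The exceptions were SNORD113-1, above background on replicate 2 with a signal of 0.21 (log2 relative to the array median), and SNORD116-19, above background on replicate 1 at -1.69. SNORD113-1 had no log2 value on replicates 1 and 3 and stood at -5.65 on replicate 4. SNORD116-19 gave -1.98, -2.27 and -4.74 on replicates 2 to 4. Outside the 4 families, 101 of 136 box C/D genes were detected (74.3%). The other genes of the same clusters behaved like the families. SNORD112 in the chromosome 14 cluster and SNORD64, SNORD107 and SNORD108 in the chromosome 15 cluster were above background on no array, and SNORD109B was so on replicate 2 only (-1.68, against -3.21, -3.43 and -3.85 on replicates 1, 3 and 4). By cluster, 0 of 38 genes on chromosome 14 and 0 of 27 on chromosome 15 were detected.

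The tandem copies share long stretches of sequence, so that a probe named for one copy may also bind another. Of the 62 probes, 40 shared a run of at least 20 identical bases with the probe of another gene of the 4 families, and the longest run between different genes was 56 bases. The box C/D probes of these families carried the box D letters in every case (62 of 62). SNORD115-1 (chr15:25444617-25444676, plus strand) and SNORD115-5 (chr15:25434583-25434642, plus strand) are shown with their common run of 56 bases in capitals.
SNORD115-1: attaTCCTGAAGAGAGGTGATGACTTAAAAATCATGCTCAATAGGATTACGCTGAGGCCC
SNORD115-5: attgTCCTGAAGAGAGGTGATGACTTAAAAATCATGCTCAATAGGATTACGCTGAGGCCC
Outside the families, 18 pairs of different members shared such a run, the longest being the 38 bases common to SNORA5A and SNORA5B.

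Detection of a member went with detection of its host gene. Host genes were taken as the RefSeq genes (GRCh38.p14) that span the member. The table gives no strand, and 32 members lay within more than 1 such gene. All 321 members were matched, 316 of them by accession, and 317 had a spanning gene. Where a spanning gene was detected on the array, 199 of 234 members were detected too (85%). Where at least 1 spanning gene was on the array by name and none of those found was detected, 1 of 46 members was (2.17%). For SCARNA15, SNORD64, SNORD107, SNORD108 and SNORD115-23 among them, another spanning gene was not found by name, so its state is unknown. The detected member was SNORA11E, at 2.96, 2.75, 2.89 and 2.88 on replicates 1 to 4, within MAGED4B. Hosts were looked up by current symbol or an older name, and whether an older name stood for the same gene was not checked. SNORA11D, within MAGED4, counted as having a detected host only through the array name MAGEE1. A further 37 members had hosts that could not be found on the array by name, and 12 of them were detected (32.4%). The tandem families make up most of the members without a detected host. Without them 1 of 8 members with an undetected host (12.5%) and 12 of 15 with a host not found by name (80%) were detected. By class, a detected host went with a detected member in 87 of 94 box H/ACA genes (92.6%), in 19 of 19 scaRNA genes and in 93 of 121 box C/D genes (76.9%), so the box C/D class was also lower among genes with a detected host. MEG8, which spans the 38 genes of the chromosome 14 cluster, was itself not detected.

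The non-coding RNA gene GAS5 (10.74 ± 0.12, SD, n = 4) hosts box C/D snoRNAs in its introns, 8 of which were on the array. SNORD44, SNORD47, SNORD74, SNORD76, SNORD77, SNORD79 and SNORD80 were detected, and SNORD75 was above background on replicates 1 to 3 only (-0.63, -1.48 and -1.22, with -2.35 on replicate 4). SNORD44, also used as a reference in small RNA assays, gave 1.20, 1.31, 1.29 and 0.84, and SNORD47 gave 4.00, 4.20, 4.12 and 3.64. Both were lowest on replicate 4, as were 6 of the 7 detected GAS5 members and 34.1% of all detected probes. SNORD79 (1.76, 1.59, 1.38 and 1.58) was lowest on replicate 3 instead.

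All 8 snoRNAs of the non-coding host SNHG1 (2.61 ± 0.27, SD, n = 4) were detected, and they did not move together between arrays. SNORD26 fell from 6.91, 7.02 and 6.59 on replicates 1, 2 and 4 to 5.61 on replicate 3, a 2.65-fold span between the highest and the lowest array. SNORD28 was likewise lowest on replicate 3 (0.72, 0.85, 0.08 and 0.61). SNORD31 was highest there (1.71, 1.76, 2.70 and 1.96). SNORD29 lay at 2.71, 2.60, 2.67 and 2.69, with an SD of 0.048. SNORD22, a snoRNA known for a role in the maturation of 18S ribosomal RNA, gave 2.79, 3.09, 2.40 and 2.53, and SNHG1 itself gave 2.85, 2.84, 2.31 and 2.44, also lowest on replicate 3. SNORD25, SNORD27 and SNORD30 had SDs of 0.25, 0.12 and 0.11.

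The ribosomal protein gene RPL13A (11.06 ± 0.10, SD, n = 4) hosts SNORD32A, SNORD33, SNORD34 and SNORD35A, all detected and none with a span over 1.4-fold. SNORD32A gave 3.05, 3.01, 2.96 and 2.92, and SNORD33 gave 2.65, 2.58, 2.51 and 2.48. Both were highest on replicate 1 and lowest on replicate 4. SNORD34 stood at 1.14, 1.16 and 1.16 on replicates 1, 3 and 4 and at 1.50 on replicate 2. SNORD35A gave 2.70, 2.68, 2.51 and 2.49.

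Of the snoRNAs that act in ribosomal RNA cleavage, 3 were on the array by name and all were detected. SNORD3B-1, a copy of the U3 gene needed for early cleavage of the precursor, had the highest-signal member probe. SNORA73A (U17), which also acts in 18S maturation, gave 4.87, 4.91, 5.39 and 5.07. SNORD22 is given above. U3 is encoded by several nearly identical copies, so the SNORD3B-1 probes cannot be assigned to that copy alone. Of 8 snoRNAs commonly used as references in small RNA assays, 6 were detected. SNORD48 (3.72, 3.78, 3.72 and 3.56) and SNORD95 (2.34, 2.26, 2.52 and 2.15) had SDs of 0.096 and 0.16, SNORD68 and SNORD96A both 0.19. SNORD61 was above background on replicates 1 to 3 (-1.75, -1.60 and -0.82, with -1.68 on replicate 4) and SNORD72 on replicates 2 and 3 (-0.39 and -1.33, with -1.88 and -6.20 on replicates 1 and 4).

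The protein partners were all detected, where 54.2% of all genes were. Each of the 4 core proteins of box C/D particles (FBL, the methyltransferase, NOP56, NOP58 and NHP2L1) and of box H/ACA particles (DKC1, the pseudouridine synthase, NHP2, NOP10 and GAR1) had a detected probe, as did 6 of 6 Cajal body genes and 10 of 10 assembly factors. None of the 8 core protein genes spanned more than 1.4-fold between arrays, and 3 of the 6 Cajal body genes and 4 of the 10 assembly factors did, where 45.6% of all detected genes did.

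By gene the scaRNAs had the highest share detected, and by probe they stood level with box H/ACA (22 of 27, 81.5%, against 102 of 125, 81.6%). SCARNA22 gave 7.18, 7.19, 7.61 and 7.27 on replicates 1 to 4, and SCARNA12 gave 6.08, 6.27, 6.45 and 6.20. SCARNA13 (5.43, 5.55, 5.93 and 5.48) and SCARNA9 (4.51, 4.66, 4.66 and 4.20), a guide for modification of U2 spliceosomal RNA, also stood far above the array median. SCARNA17, SCARNA14, SCARNA20, SCARNA2, SCARNA11 and SCARNA18 had means between 2.35 and 4.00. SCARNA5, SCARNA9L, SCARNA7, SCARNA8, SCARNA10 and SCARNA3 had lower means, down to 0.14 in SCARNA3. The detected scaRNAs below the array median were SCARNA1 (-0.06 ± 0.18), SCARNA6 (-0.16 ± 0.33), SCARNA23 (-0.25 ± 0.17) and SCARNA4 (-0.66 ± 0.20, SD, n = 4 each). All these values are those of the detected probe on the RNA's own record, not medians over the probes of a gene. These are signals of different probes and do not rank the RNAs by amount. Among the detected scaRNA probes, that of SCARNA6 had the largest SD (0.15, 0.00, -0.62 and -0.18). That of SCARNA5, in the same host gene ATG16L1, had the smallest (1.37, 1.47, 1.29 and 1.47, SD 0.086). As medians with their undetected cDNA probes, SCARNA22, SCARNA4 and SCARNA23 had larger SDs (4.30, 1.48 and 0.57). Replicate 3 was the highest array for 12 of the 22 detected scaRNA probes, and for 50.6% of all detected probes.

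SCARNA15 was the scaRNA that was not detected. Its own probe was well above background on no array and had no log2 value on any of them, and the probe on a cDNA record 758 bases away gave -2.72, -2.25, -3.24 and -2.46 and was above background on none.

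**Figure D2:**
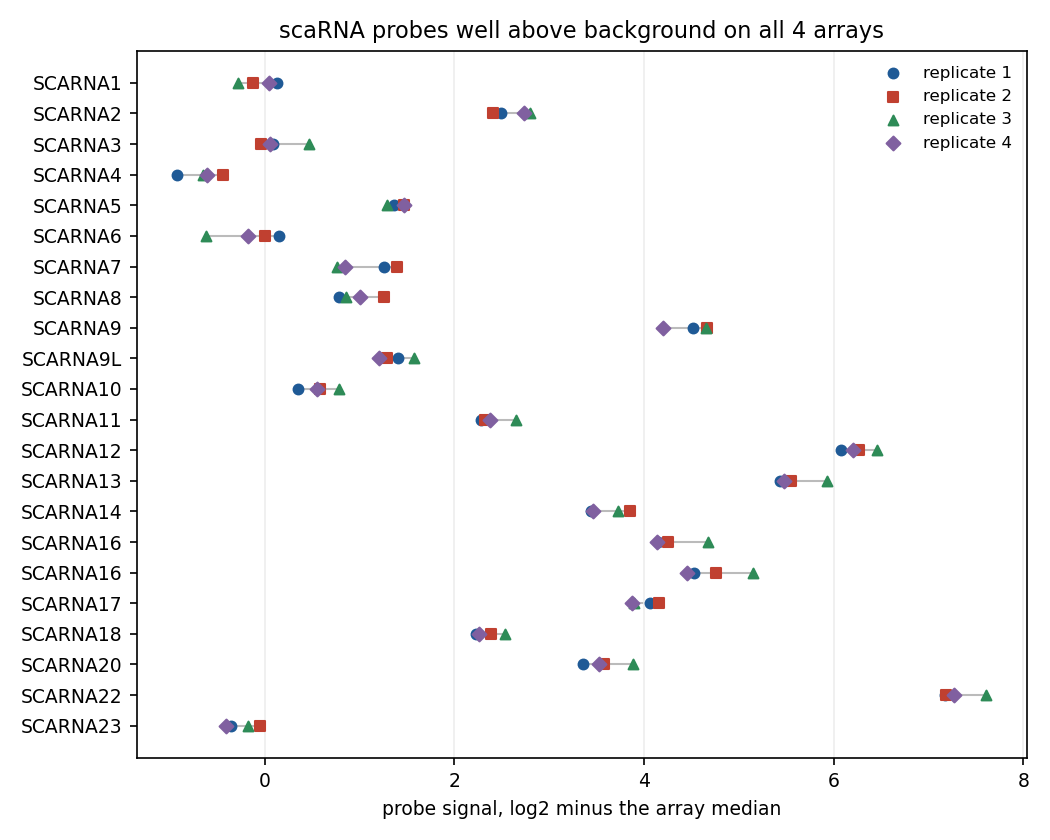
Signal of the 22 scaRNA probes well above background on all 4 arrays (horizontal axis, log2 minus the array median), with 1 marker per replicate and a line from the lowest to the highest. SCARNA16 has a pair of rows because 2 spots carry the same probe sequence. The 4 replicates of SCARNA22 lie between 7.18 and 7.61 and those of SCARNA4 between -0.92 and -0.44.

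For 34 members the array held 2 probes, and often only 1 of them was detected. In 29 of the 34 the second probe was on a cDNA record. Its start lay a median of 302.5 bases from that of the own-record probe, where both were placed on the same chromosome. A pair therefore need not measure the same RNA. Both probes were detected for 10 genes, neither for 6 and only 1 of them for 18. Among all genes with 2 probes, 26% had only 1 detected, and among all genes with several probes 32.3% had some but not all detected. In 16 of the 18 genes the detected probe was the one on the small RNA's own record: SCARNA4, SCARNA22, SCARNA23, SNORA2B, SNORA16B, SNORA22, SNORA37, SNORA46, SNORA55, SNORA58, SNORA65, SNORA70B, SNORA77, SNORA80, SNORD8 and SNORD12B. For example, SNORA70B gave 4.72, 4.78, 4.71 and 4.32 on its own record, while the probe on a cDNA record starting 80 bases away on the same strand gave -1.08, -2.10, -1.90 and -2.17 and was above background on replicate 1 only. SNORA16B gave 4.03, 4.09, 3.60 and 3.99 on its own record, with the cDNA probe above background on no array.

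In the 2 other genes the cDNA probe was detected and the gene's own probe was not. SNORA75, within the nucleolin gene NCL, gave 0.80, 0.72, 0.95 and 0.84 on a cDNA probe of the opposite strand, and its own probe (-1.65, -1.94, -1.26 and -2.40) was above background on replicates 1 and 3. SNORD124 gave 0.97, 0.62, 1.33 and 0.95 on a cDNA probe of the opposite strand, and its own probe was above background on none. For these 2 genes detection therefore rests on the cDNA probe alone. The same holds for SNORA78, which counts as a detected box H/ACA gene. Its only probe is on a cDNA record and is the reverse complement of its host's probe over 56 bases. For the other members too, a detected probe does not show a mature snoRNA, since unspliced host transcript holds the same sequence.

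The pairs were also counted by the strand and place of the cDNA record. There were 29 pairs of an own-record and a cDNA probe. In the 11 pairs on the same strand both probes were detected in 5, the own-record probe alone in 3 and neither in 3. The probes of 13 pairs lay on opposite strands, 694730 bases apart in SNORA22 and closer in the others. Of these, both were detected in 1 (SNORA33), the own-record probe alone in 9, the cDNA probe alone in 2 and neither in 1. In 5 pairs the cDNA probe was mapped to another place or not placed, and there both were detected in 1 (SNORA26) and the own-record probe alone in 4. With so few pairs in each group these counts are a description.

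**Figure D3:**
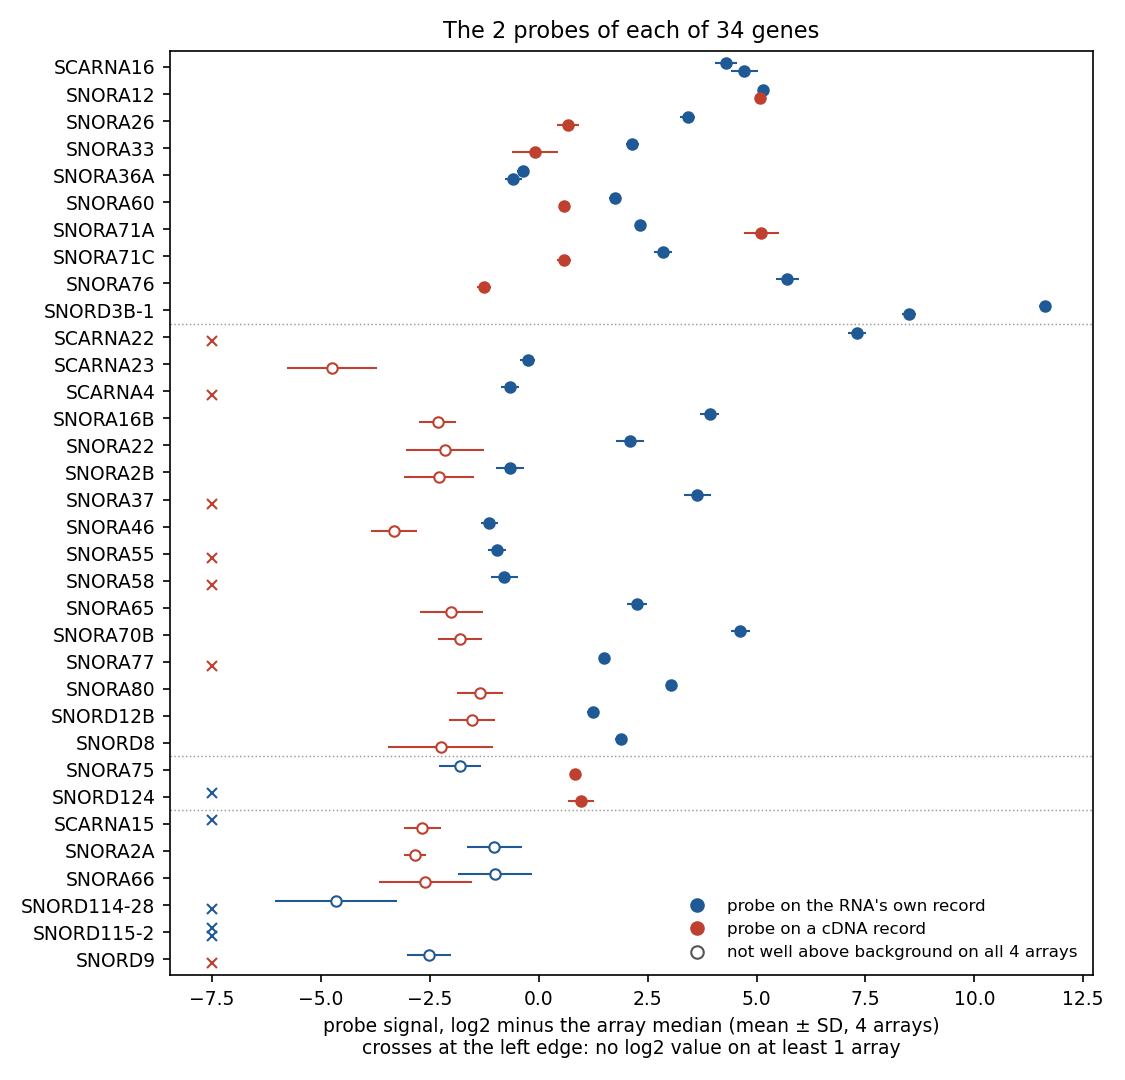
Mean signal ± SD over 4 arrays (horizontal axis, log2 minus the array median) of both probes of 34 genes, blue for a probe on the small RNA's own record and red for one on a cDNA record. Filled points were well above background on all 4 arrays, open points were not, and crosses had no log2 value on at least 1 array. From top to bottom the dotted lines separate the 10 genes with both probes detected, 16 with the own-record probe only, 2 with the cDNA probe only and 6 with neither.

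Where both probes were detected, the signals of most pairs lay far apart. The gaps in the 10 genes ran from 0.08 (SNORA12) to 6.97 (SNORA76) log2 units with a median of 2.25, while the SD of a gap between arrays was 0.09 to 0.46. In 6 genes the probes lay more than 2 log2 units apart. Such gaps were not counted over all genes with 2 probes, so they are not shown to be particular to these RNAs. SNORA12 gave 5.16, 5.17, 5.23 and 5.07 on its own record and 4.98, 5.03, 5.24 and 5.08 on a cDNA probe starting 72 bases away on the same strand, so the gap was within the spread between arrays. SNORA76 gave 5.48, 5.53, 6.06 and 5.78 on its own record and -1.06, -1.38, -1.18 and -1.41 on a cDNA probe 809 bases away, a 125-fold difference in signal. SNORA71A went the other way, with 2.33 ± 0.096 on its own record and 5.11 ± 0.39 on the cDNA record. SNORA33, SNORA60 and SNORA71C had gaps of 2.24 ± 0.44, 1.17 ± 0.14 and 2.27 ± 0.36 with the own-record probe higher (SD, n = 4 arrays each).

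Pairs on the same record gave the error of repeated measurement. SCARNA16 was represented by the same 60 bases under a pair of probe names (chr17:75085516-75085575, plus strand), printed once with all letters in capitals because all are shared.
SCARNA16: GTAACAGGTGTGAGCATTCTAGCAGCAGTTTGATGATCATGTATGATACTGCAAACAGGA
The spots gave 4.15, 4.25, 4.67 and 4.14 under one name and 4.52, 4.76, 5.14 and 4.45 under the other. The second was higher on all 4 arrays, by 0.42 ± 0.09, so 2 spots of 1 sequence differed by more than the spread of that difference between arrays. SNORA36A was measured by probes offset by 1 base, which gave -0.16, -0.39, -0.36 and -0.50 and -0.85, -0.39, -0.56 and -0.51, a gap of 0.23 ± 0.32. SNORD114-28 and SNORD115-2 also had probes on the same record offset by 1 and 2 bases, all of them undetected.

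The SNORD3B-1 probes are shown because one of them carries the highest member signal. Both were designed on the same record, with the first probe (chr17:18965252-18965311, plus strand) 130 bases nearer the 5′ end than the second (chr17:18965382-18965441, plus strand). Capitals mark the letters TGATGA and the last CTGA, whether or not they are the boxes.
SNORD3B-1, first probe: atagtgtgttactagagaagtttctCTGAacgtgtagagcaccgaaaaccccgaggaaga
SNORD3B-1, second probe: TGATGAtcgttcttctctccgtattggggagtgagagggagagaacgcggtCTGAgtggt
The first gave 11.43, 11.62, 11.67 and 11.75 and the second 8.39, 8.57, 8.35 and 8.68. The gap of 3.12 ± 0.14 log2 units corresponds to an 8.68-fold difference between probes that the files place on the same RNA.

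Some member probes were complementary to another probe, and the longest such runs were those of SNORA78 and SNORA26. The SNORA26 probe on its own record (chr4:53579467-53579526, plus strand) and the one on a cDNA record, which the files place on an unassembled contig, are reverse complements over 41 bases, shown in capitals.
SNORA26, own record: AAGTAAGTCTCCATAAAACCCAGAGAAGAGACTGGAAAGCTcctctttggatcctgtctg
SNORA26, cDNA record: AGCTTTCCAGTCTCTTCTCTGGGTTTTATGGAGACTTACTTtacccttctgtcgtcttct
They gave 3.32, 3.65, 3.43 and 3.26 and 0.49, 0.57, 1.03 and 0.58, and both were detected. SNORA78 was represented only by a probe on a cDNA record (chr16:2015441-2015500, minus strand), 56 bases of which are the reverse complement of the probe for its host SNHG9 (chr16:2015445-2015504, plus strand).
SNORA78: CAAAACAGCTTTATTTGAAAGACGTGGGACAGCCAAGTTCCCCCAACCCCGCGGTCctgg
SNHG9: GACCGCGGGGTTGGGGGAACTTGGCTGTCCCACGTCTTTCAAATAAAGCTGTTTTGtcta
The SNORA78 probe gave 0.76, 0.62, 0.96 and 0.83, and SNHG9 gave 7.25, 7.21, 7.58 and 7.40. Signals of different probes do not rank the strands by amount.

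The spread between arrays of the detected members was close to that of the whole array. The median SD was 0.19 log2 units over 226 member probes and 0.20 over all 25661 detected probes. It was 0.20 in box H/ACA, 0.19 in box C/D and 0.20 in scaRNA probes. Of the 216 detected members, 100 spanned more than 1.4-fold between the highest and the lowest array (46.3%), against 45.6% of all detected genes. The 1.4-fold limit is the one the study used to call a gene changed. By probe the shares were 94 of 226 (41.6%) and 43.7%. Dixon's ratio, the gap of the outermost array to its neighbour as a share of the range, passed its 95% critical value in 11 of 226 member probes (4.87%) and in 7.33% of all detected probes. A range over 3 arrays is never wider than over 4, so leaving out an array tends to lower this count. It fell most without replicate 3, where 54 of 216 members (25%) and 21.6% of all detected genes spanned more than 1.4-fold. Without replicates 1, 2 and 4 in turn it was 80, 76 and 86 members, and 36.7%, 38.2% and 38.7% of all detected genes.

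A few members varied far more. SNORD15A, in the ribosomal protein gene RPS3, gave 3.77, 4.41, 2.38 and 3.15, the largest SD of any detected member probe (0.87, a 4.10-fold span). SNORD15B, in the same host, gave 4.13, 4.33, 3.76 and 4.13, and RPS3 itself 9.71 ± 0.042 (SD, n = 4). SNORA15 (-1.11, 0.17, -1.63 and -0.71) was highest on replicate 2 and SNORA5C (1.02, -0.39, -0.55 and -0.21) on replicate 1. SNORA5A and SNORA5B had SDs of 0.12 and 0.084. No array was high for all of these RNAs. SNORA74A was highest on replicate 2 and lowest on replicate 3 (1.14, 2.01, 0.58 and 1.44). SNORD50B stood at 3.68 on replicate 4, above 2.36, 2.67 and 2.76 on the others. At the other end, SNORD99 (2.81, 2.91, 2.89 and 2.86), SNORD104 (6.63, 6.62, 6.70 and 6.72) and SNORD88C (1.25, 1.15, 1.16 and 1.09) differed by 1.12-fold or less between arrays. SNORA29 (-1.28, -1.35, -1.41 and -1.46) and SNORA49 (1.96, 1.94, 1.79 and 1.86) had SDs of 0.079 each. When the probes of a gene were combined by their median, SNORA37, SNORA55, SNORA58, SNORA77, SNORD8 and SNORD124 came out among the most variable genes, and each of them had a second probe that was not detected. Their detected probes had SDs of 0.31, 0.20, 0.31, 0.088, 0.13 and 0.29.

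**Figure D4:**
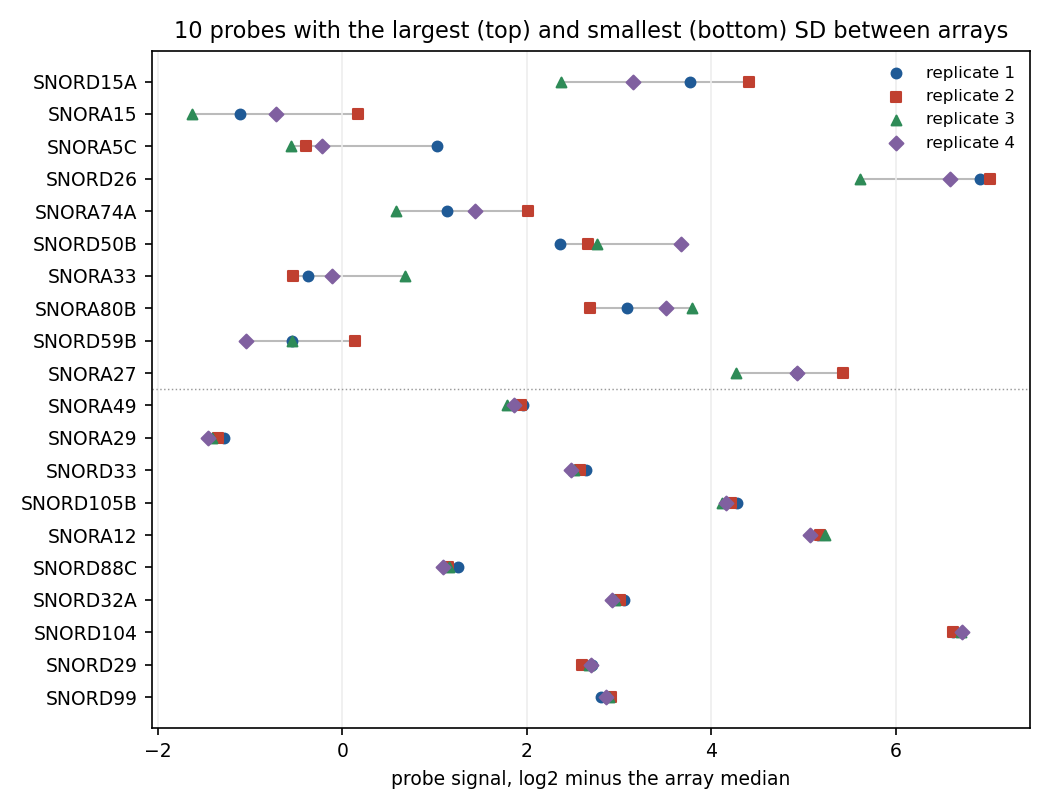
Signal (horizontal axis, log2 minus the array median) of the 10 detected member probes with the largest and the 10 with the smallest SD between arrays, with 1 marker per replicate and a line from the lowest to the highest. SNORD15A runs from 2.38 to 4.41 and SNORD99 from 2.81 to 2.91, and no single replicate is the extreme in all of the upper rows.

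The classes differed slightly in which array was high. Each detected probe was set against its own mean over the 4 arrays. Box C/D probes averaged 0.12 above it on replicate 2 and 0.053 below it on replicate 3, while all detected probes averaged 0.041 and 0.067 above it on these arrays. The scaRNA probes averaged 0.048 and 0.11 above it and the box H/ACA probes 0.066 and 0.027. Replicate 2 was the highest array for 45 of 102 box C/D probes (25.1% of all detected probes) and replicate 3 for 29 (50.6%). On replicate 3 the box C/D mean stayed below 0 and the scaRNA mean above 0 under all 4 scalings tried, and the box H/ACA mean changed sign. On replicate 4 the mean over all detected probes was -0.093 as reported and 0.041 when centring counted the signals of 0 or less as lowest, so that which array is lowest for an RNA can depend on the scaling. The SD between arrays of the mean over all member probes was 0.065, and that of the mean over all detected probes 0.071. The deviations of all probes on replicates 1 and 3 went with the GC content of the probe (Spearman's rho = 0.44 and -0.44 over 25661 probes of the same arrays), where the 226 member probes gave 0.02 and 0.04. On replicates 2 and 4 rho was -0.21 and 0.15 over the member probes and 0.09 and 0.17 over all. The part of base composition in the class means was not tested.

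**Figure D5:**
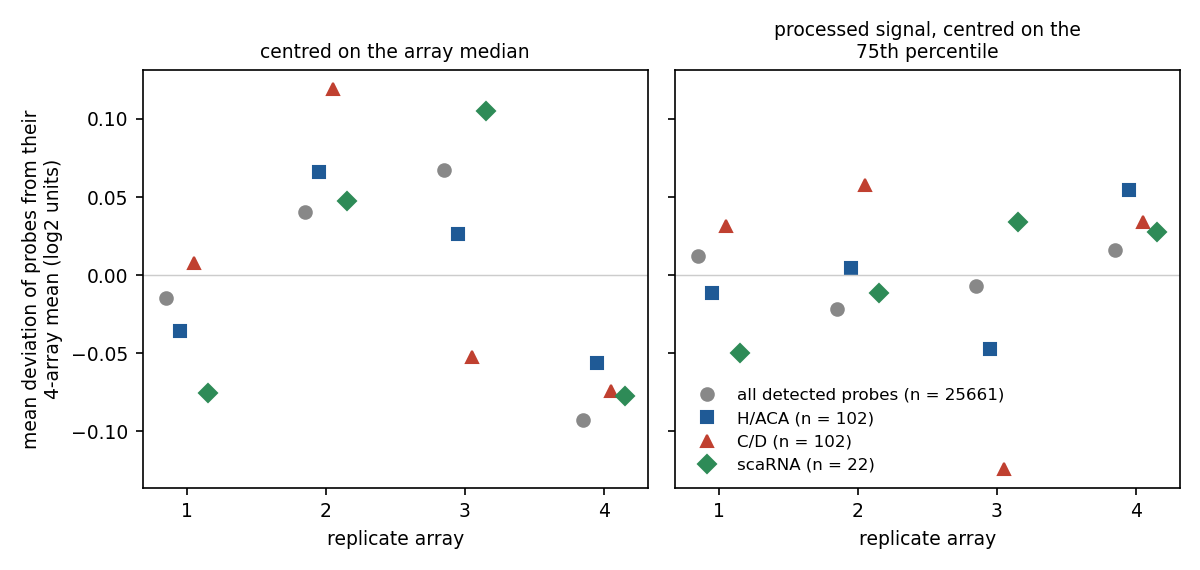
Mean deviation of detected probes from their own mean over 4 arrays (vertical axis, log2 units) for each replicate array (horizontal axis), by class and for all detected probes, after centring on the array median (left) and for the processed signal after centring on the 75th percentile (right). On replicate 3 the box C/D mean is the lowest and the scaRNA mean the highest in both panels.

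Loss of detection fell most often on replicate 4. Of the 34 member probes above background on some arrays only, 10 were above it on replicates 1 to 3 and missed it on replicate 4 alone, 3 of them box H/ACA and 7 box C/D. Replicate 4 also had the smallest share of all spots above background. Leaving it out raised the detected genes from 19689 to 20275 over the whole array and from 216 to 224 among members. The share of all probes that missed replicate 4 alone was not counted, so the pattern is not shown to be particular to the members. Examples are SNORA2A (-1.01, -0.57, -0.58 and -1.90) and SNORD11B (-1.08, -0.98, -1.41 and -1.78). Others were above background on a different subset: SNORA14A on replicates 2 and 3 (-1.63 and -1.51), SNORA30 (-1.48) and SNORA59B (-1.40) on replicate 3, SNORA35 (-1.26) on replicate 2 and SNORD111 on replicates 3 and 4 (-1.58 and -0.38). No scaRNA probe was above background on some arrays only.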

How the data were processed

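Human cells treated with bafilomycin A1 were measured on 4 Agilent single-colour arrays. The files deposited by the authors hold the linear intensity of each spot, background-subtracted by Agilent Feature Extraction 10.7.3.1 and not normalized between arrays, with probe positions on GRCh37. Spots marked as outlying features and control spots were left out, the spots of a probe were averaged, and log2 of the signal minus the array median over non-control probes was taken, as the study's methods do. A signal of 0 or less was given no log2 value. A gene's value is the median over its probes, but the values of detected scaRNAs are given by probe. A probe was detected on an array when over 50% of its spots carried the software's flag for being well above background. The number of arrays limits the precision, and errors are SDs over 4 arrays. With 1 group no comparison between groups was tested.

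The members, gene lists and the rule for named genes were chosen with earlier results of these data known. Named are every scaRNA, genes with 2 probes, the 5 most and 5 least variable detected genes and up to 5 partly detected genes of the box H/ACA and box C/D classes, and list members. The probes with the largest SDs, SNORD15B, SNORA5A, SNORA5B, SNORA11E and the members shown for shared runs were named after their values were seen. Shared runs of at least 20 bases were searched among all probes on both strands. The lists of Cajal body, core and assembly proteins, host genes and markers are given by counts. All 19 listed host genes were detected.

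Alternatives were another detection flag, detection on at least 1 array, outlying spots kept, the processed signal minus the 75th percentile, normexp with an offset of 50 and quantile normalization, other ways to combine probes and leaving out each array. Leaving out spots with an outlying local background and counting gaps only between detected probes were added after seeing the data. The spread, span, outlier and shared-run steps were tested on simulated data. Python 3.11.15, numpy 2.4.6, pandas 2.3.3, scipy 1.17.1, matplotlib 3.10.9, R 4.3.3 and limma 3.58.1 were used.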

Additional observations from a re-analysis of the deposited data

Results flagged for a closer look

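In 3 of 87 detected probes of the named genes 1 array stood apart from the other 3, with a gap to the nearest of them that was a larger share of the whole range than Dixon's 95% critical value allows. Chance marks about 1 in 20 groups of 4 values. SNORD34 was highest on replicate 2 (1.50 against 1.14, 1.16 and 1.16, ratio 0.930). SNORA70B on its own record was lowest on replicate 4 (4.32 against 4.72, 4.78 and 4.71, ratio 0.852). The SNORA26 probe on a cDNA record was highest on replicate 3 (1.03 against 0.49, 0.57 and 0.58, ratio 0.842). Over all detected member probes 11 of 226 were marked (4.87%), 1 on replicate 1, 2 on replicate 2 and 4 each on replicates 3 and 4, where 7.33% of all detected probes were.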

How the results depend on the processing

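No paired analysis was possible because files of 1 group only were analysed here. The counts of detected members, in all and by class, changed by less than 1.5 times under every alternative tried for them (205 to 247 of 321 in all), and box C/D had the smallest share detected under each. With each array left out in turn, detected members ranged from 216 to 224 in all, 94 to 96 in box H/ACA, 101 to 107 in box C/D and 21 to 21 in scaRNA, and genes with only some probes detected from 18 to 18. The flag for a positive and significant signal gave 10 such genes in place of 18. The median SD of detected members was 0.207 as reported, 0.123 after normexp with quantile normalization and 0.184 when the processed signal was used, and 0.163 (without replicate 3) to 0.208 with an array left out. Members spanning more than 1.4-fold numbered 35 after normexp, where 14.1% of all genes did, and 54 (without replicate 3) to 86 with an array left out. Genes whose probes lay more than 2 log2 units apart numbered 23 of 32 with a shared value when undetected probes were included. They numbered 6 among genes with both probes detected and 22 to 23 with an array left out. After normexp, whose offset of 50 raises low signals, they numbered 11. No such count was made over all genes on the array. The SD between arrays of the member mean was 0.0434 after normexp, against 0.0648 as reported, and 0.0337 (without replicate 2) to 0.0794 with an array left out. In all, 38 of 45 values under other settings stayed within a bound. The bound was 1.5 times for a count, and for other values the SD over the runs with an array left out. Some of the 38 could not move. No member spot was outlying, so keeping outlying spots could not change the counts of detected members. No member had more than 2 probes, so the mean over the probes of a gene equalled the median. Where no cause is named, the cause was not tested. Signals near background limit the counts of partly detected probes.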

Other observations

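The SNORA70 group, in which 7 genes are named for copies of 1 box H/ACA RNA, was detected in full on the probes of the RNAs' own records, and 7 pairs of these probes shared a run of 20 to 29 bases. SNORA70 gave 5.17, 5.27, 5.05 and 4.76, SNORA70E gave 4.57, 4.67, 4.42 and 4.19, and SNORA70F gave 2.10, 2.07, 1.84 and 1.61. SNORA70B, SNORA70C, SNORA70D and SNORA70G had means of 4.63, 4.14, 2.35 and 3.55. All 7 were lowest on replicate 4, the array that was lowest for 34.1% of all detected probes. Whether a probe also bound other copies was not tested.

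The SNORD58A probe shared 22 bases with a probe for the ribosomal protein gene RPL17, its host, and gave 1.71, 1.60, 1.18 and 1.64. SNORD83A (0.93, 1.07, 0.86 and 0.86) and SNORD83B (4.14, 4.17, 3.39 and 3.87) shared 21 bases and had SDs of 0.10 and 0.36.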
